A study of Mus musculus and Mus musculus musculus x Mus musculus castaneus with 52 samples.

Results

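The genes described here are 31 genes of cholesterol and fatty acid synthesis that the SREBP transcription factors are known to control, out of 16687 genes in the deposited expression table. They were chosen from that table because several of them had a lower 24 h change in the embryonic stem cell (ESC) clones labelled Dusp9+/- than in the F121 line. That withdrawal contrast is therefore given as a description with no test, and the tests below compare other groups of libraries. One alternative for the CM lines adds the F121 and V6.5 libraries at 0 h. All 31 genes passed the filter on low values in every fit, and all are autosomal.

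Bulk RNA sequencing was made of mouse pluripotent stem cells with different numbers of X chromosomes, and 24 libraries were analysed. The undifferentiated wild-type lines were 3 female induced pluripotent stem cell (iPSC) lines, LV20, LV21 and LV22, at passage 7 (P7) and passage 13 (P13), which the series text gives as XX/XO and which are called XX at P7 and XO at P13 here, the 3 male XY iPSC lines LV4, LV8 and LV16 at the same passages, and the CM ESC lines at passage 5 (P5), of which CM1 and CM2 are female (XX) and CM3 and CM7 male (XY). The other 8 libraries came from a LIF withdrawal experiment, described as in serum without feeders. They were taken at 0 h and after 24 h without LIF, the cytokine that supports self-renewal. They were the wild-type female line F121, the wild-type male line V6.5 and 2 female clones labelled Dusp9+/-, each with 1 library per time. Per the labels the LV and V6.5 lines are Mus musculus, while F121, the clones and the CM lines are crosses of musculus with castaneus mice. Each line counted as 1 replicate of its group, and the main fits did not pair a line's P7 and P13 libraries.

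Cells make cholesterol from acetyl-CoA through the mevalonate pathway, squalene and a series of sterol intermediates, and fatty acids from the same precursor through malonyl-CoA. When sterols in the endoplasmic reticulum run low, SCAP carries the SREBP proteins to the Golgi, where proteases release a transcription factor that binds sterol regulatory elements near its target genes. INSIG proteins hold SCAP back when sterols are plentiful, and Insig1 is itself a target. SREBF2 mainly drives the sterol genes and SREBF1 the fatty acid genes.

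RefSeq promoter windows of GRCm38.p6, from 250 bases before to 50 after an annotated start, were found for 24 of the 31 genes. TCACNCCAC, a form of the sterol regulatory element, was searched on both strands together with CCAAT and GGGCGG, short motifs of the factors NF-Y and Sp1, which are known to act beside SREBP. TCACNCCAC was present in 1 of the 24 genes, Hmgcs1 (4.17%), and in 1.46% of the 11586 genes of the expression table that have a window. CCAAT was present in 19 of the 24 (79.2%) and in 42.8% of those 11586 genes, and GGGCGG in 20 (83.3%) and in 66.8%. Genes with several annotated starts were counted once. A match is a description of the letters, not a binding site, and many elements differ from the form searched. The Hmgcs1 window is shown because it holds the element, and those of Insig1 and Lss, chosen after their values were seen, because both genes changed in the comparisons below. Capitals mark TCACNCCAC and CCAAT on either strand (ATTGG is CCAAT read on the opposite strand), and no matches overlapped in these windows. Hmgcs1 lies at chr13:119690101-119690400, Insig1 at chr5:28071162-28071461 and Lss at chr10:76531355-76531654, all on the plus strand.

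Hmgcs1: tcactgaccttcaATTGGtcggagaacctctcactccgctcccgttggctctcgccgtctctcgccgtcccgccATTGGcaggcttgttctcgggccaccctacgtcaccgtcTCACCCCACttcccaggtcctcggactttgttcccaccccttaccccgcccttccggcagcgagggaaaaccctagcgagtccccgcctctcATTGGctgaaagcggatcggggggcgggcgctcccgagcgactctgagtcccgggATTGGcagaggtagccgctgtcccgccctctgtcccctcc

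Insig1: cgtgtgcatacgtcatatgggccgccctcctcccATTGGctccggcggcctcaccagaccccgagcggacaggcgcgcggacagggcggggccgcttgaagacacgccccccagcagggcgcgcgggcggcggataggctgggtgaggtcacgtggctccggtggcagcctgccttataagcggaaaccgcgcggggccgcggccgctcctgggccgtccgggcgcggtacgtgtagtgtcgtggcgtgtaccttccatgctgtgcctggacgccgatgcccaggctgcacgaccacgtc

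Lss: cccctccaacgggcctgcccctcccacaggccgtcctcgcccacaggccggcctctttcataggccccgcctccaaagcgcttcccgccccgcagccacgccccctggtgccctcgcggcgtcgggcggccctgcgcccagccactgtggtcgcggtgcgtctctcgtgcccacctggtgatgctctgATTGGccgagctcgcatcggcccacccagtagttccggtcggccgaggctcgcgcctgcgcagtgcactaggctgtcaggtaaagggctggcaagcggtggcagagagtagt

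The Hmgcs1 window held 1 TCACNCCAC match and 4 CCAAT matches, and the Insig1 and Lss windows 1 CCAAT match each.

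Levels are given as log2 CPM, which sets each count against the size of its library. The libraries held 8309171 to 14245900 reads recovered from the deposited values, and the members' smallest count in any library ran from 7 reads for Idi1 upward, with 45 for Tm7sf2 and 53 for Fdps. Pluripotency markers were high in every library, with a summed level of 2334 to 4157 CPM for 8 genes. The 12 fibroblast and feeder markers summed to 266 to 388 CPM in the iPSC lines at P7, 524 to 1471 at P13 and 588 to 682 in the CM lines. At 0 h of the withdrawal experiment they summed to 824 CPM in F121 and 877 in V6.5, against 89.5 in clone 1 and 197 in clone 2. Y-linked genes summed to 18.5 CPM in the female line F121 at 0 h, against 6.89 and 12.0 in clones 1 and 2. Whether feeders gave these levels was not tested. Some libraries stood apart from their labels. The median of 526 X-linked genes relative to 12865 autosomal genes was 0.36 (log2) in LV20 and 0.46 in LV22 at P7 but -0.27 in LV21, and -0.66 in LV20 and -0.75 in LV21 at P13 but -0.26 in LV22. It lay between -0.75 and -0.54 in the XY iPSC libraries. Dusp9, an X-linked phosphatase of ERK, was at 6.93 log2 CPM in F121 and at 5.96 and 7.43 in clones 1 and 2 at 0 h. At 24 h it was at 7.84 in F121 and at 7.71 and 6.58 in clones 1 and 2. Both libraries labelled Dusp9+/- lay below F121 at 24 h, clone 1 by little, while at 0 h clone 1 lay below it and clone 2 above. They are named by their label.

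Across the 24 libraries the genes varied over a median range of 1.41 on the log2 scale. Insig1 had the widest range, 2.83, and Sc5d, which makes a sterol intermediate near the end of the pathway, the narrowest, 0.85. Of the 31 genes, 13 had their highest value in an XY iPSC library at P7 and 19 their lowest in a clone labelled Dusp9+/- at 24 h, the library class the choice of genes used.

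**Figure D1:**
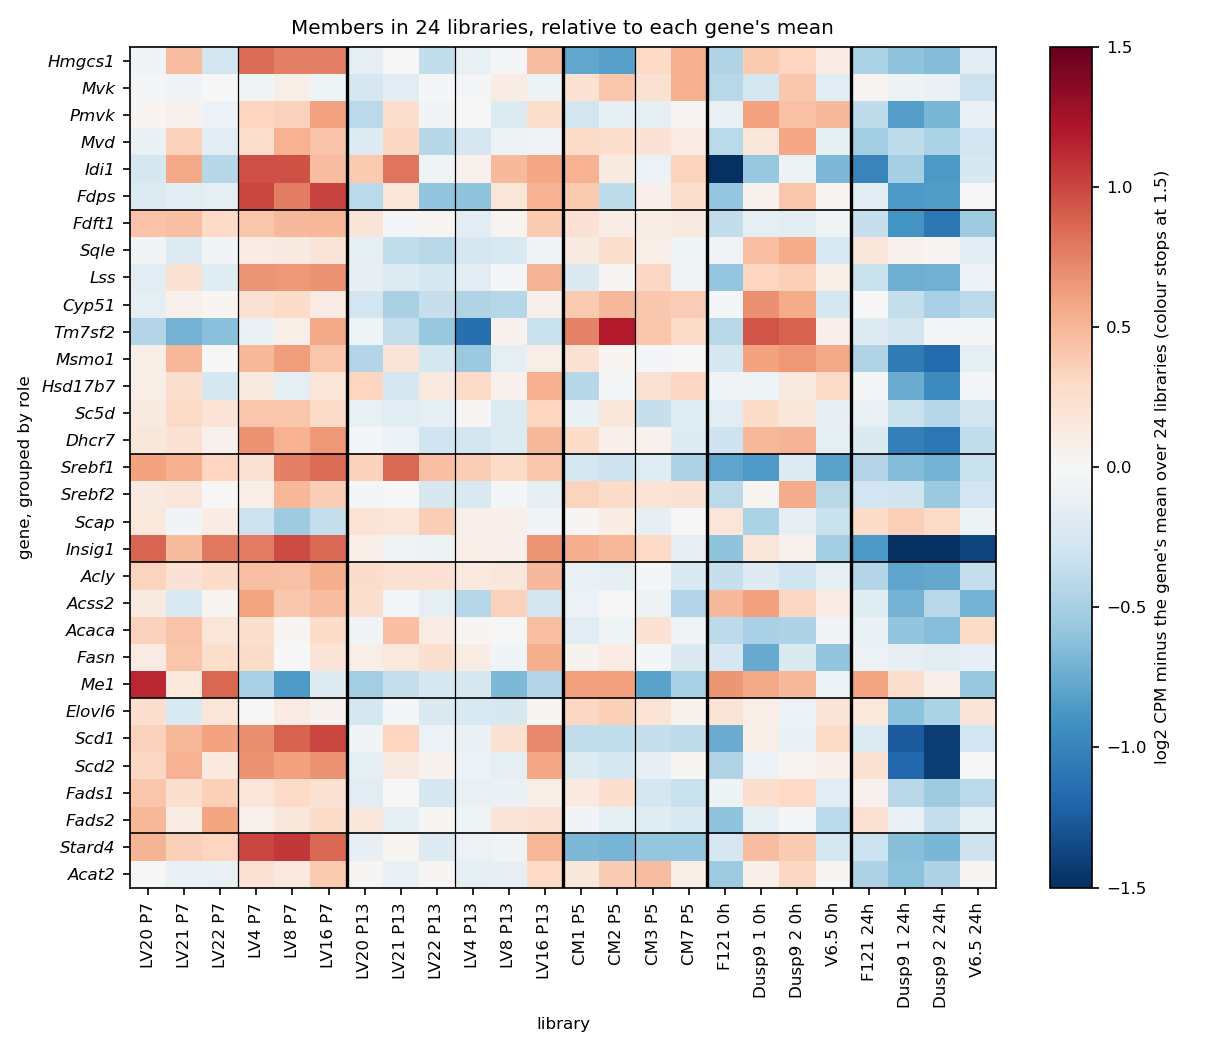
Level of each of the 31 genes (rows, grouped by role) in the 24 libraries (columns), as log2 CPM minus the gene's mean over all libraries, with thick lines between experiments and passages. The XY iPSC libraries at P7 are red for most sterol genes, the P13 libraries other than LV16 are paler or blue, and the clone libraries at 24 h are the bluest.

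In male iPSC lines 7 of the 15 enzymes of sterol synthesis, Stard4, and the regulators Srebf2 and Insig1 were among the genes that fell between P7 and P13. Of the 31 genes, 12 passed the test as lower at P13 and 1 as higher, against 5.82% of all 13978 genes tested that were called lower and 7.23% called higher (limma, Benjamini-Hochberg adjusted p under 0.05). The median difference of the 31 genes was -0.41 on the log2 scale, against 0.00 for all genes, and 26 of the 31 lay below 0. In the mevalonate pathway 2 of 6 fell, in the steps from squalene to cholesterol 5 of 9, among the SREBP factors and their control 2 of 4, among the desaturases and elongases 2 of 5, and in fatty acid synthesis 0 of 5.

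Stard4, a carrier of cholesterol between membranes, was at 7.12, 7.18 and 6.98 log2 CPM in LV4, LV8 and LV16 at P7 and at 6.03, 6.05 and 6.61 at P13. All 3 P13 libraries lay below all 3 at P7, and LV16 moved least. The fall was 1.82-fold (log2 difference -0.86 ± 0.14 SE, n = 3 and 3, limma adjusted p = 0.00281), and of the 13 calls in this comparison it was the single one that held under every alternative tried (adjusted p from 9.32e-05 to 0.0218 over 12 alternatives). Hmgcs1, which makes HMG-CoA from acetyl-CoA, was at 9.36, 9.28 and 9.29 at P7 and at 8.42, 8.49 and 8.99 at P13. The groups did not overlap, and the fall was 1.6-fold (-0.68 ± 0.17 SE, limma adjusted p = 0.0205).

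Fdps, which makes farnesyl diphosphate, was at 4.29, 4.07 and 4.31 at P7 and 2.69, 3.47 and 3.82 at P13, with the lowest value in LV4. It fell 1.86-fold (-0.90 ± 0.28 SE, limma adjusted p = 0.0466). The other mevalonate genes did not pass the test. They were Mvd, the decarboxylase at the end of the pathway (-0.53), Idi1, which isomerises its product (-0.42), and the kinases Pmvk (-0.41) and Mvk (0.01).

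Of the enzymes from squalene to cholesterol, 5 fell. Lss, which closes the sterol rings, was at 7.35, 7.33 and 7.36 in LV4, LV8 and LV16 at P7 and at 6.53, 6.66 and 7.20 at P13, a 1.47-fold fall (-0.55 ± 0.15 SE, limma adjusted p = 0.0274). Msmo1, which removes methyl groups from sterols, fell 1.64-fold (-0.71 ± 0.18 SE, limma adjusted p = 0.0221). The other 3 were Dhcr7, the last reductase of the pathway (-0.61), Cyp51, the lanosterol demethylase (-0.47), and Sqle, which makes the squalene epoxide (-0.32). Fdft1, which makes squalene, was -0.38 (adjusted p = 0.0522 in limma), Tm7sf2, a sterol reductase, -0.66, Sc5d -0.33 and the sterol reductase Hsd17b7 0.24, none past the threshold.

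Among the regulators, Insig1 was at 7.29, 7.50 and 7.36 at P7 and at 6.60, 6.60 and 7.19 at P13. LV16 stayed near its P7 value, while LV4 and LV8 dropped. The fall was 1.51-fold (-0.59 ± 0.15 SE, limma adjusted p = 0.0197). Srebf2 fell 1.37-fold (-0.45 ± 0.10 SE, limma adjusted p = 0.0133), Srebf1 was at -0.26 without passing, and Scap rose 1.36-fold (0.44 ± 0.11 SE, limma adjusted p = 0.0193). The transcript of the escort protein Scap and that of its retention protein Insig1 therefore changed in opposite directions.

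Scd1 and Scd2, the desaturases that make monounsaturated fatty acids, fell by 0.58 and 0.54 on the log2 scale (limma adjusted p = 0.0377 and 0.0341). Values of Scd1 overlapped between passages, since LV16 at P13 (7.95) lay above LV4 at P7 (7.93). Fads1 and Fads2, desaturases of polyunsaturated fatty acids, were at -0.27 and -0.05, and the elongase Elovl6 at -0.21, none past the threshold. None of the 5 fatty acid synthesis genes passed: Acss2, which activates acetate, was at -0.61, the citrate lyase Acly at -0.21, the carboxylase Acaca at -0.03, the fatty acid synthase Fasn at 0.05 and malic enzyme Me1 at 0.06. Acat2, a cytosolic thiolase, was at -0.24. Short reads can be shared between Scd1 and Scd2, between Acat2 and its close copy, and between Fdps or Idi1 and their processed copies, and how the authors counted shared reads is not given in the sources used here.

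The count moved when 1 library was left out, and so did the count over all genes, 1823 in the main fit. Without LV4 at P13, 1 of the 31 genes was called lower, and 429 of all genes were called in either direction. The counts were 2 without LV8 at P13 (752 of all genes), 1 without LV8 at P7 (505) and 3 without LV16 at P7 (1018). They were 5 without LV4 at P7 (1404) and 17 without LV16 at P13 (2198). The median difference of the 31 genes ran from -0.52 to -0.31 over these fits. The 12 fibroblast and feeder markers were all higher at P13 (9 of 12 called), with a summed level of 275 to 290 CPM in the male lines at P7 against 524 in LV16, 1013 in LV8 and 1471 in LV4 at P13. LV16 had the smallest rise in those markers and the smallest median drop of the 31 genes (-0.16, against -0.46 in LV8 and -0.39 in LV4). The part of the marker level in the result was not tested. In bulk RNA fewer cells with a transcript and less transcript per cell cannot be told apart.

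**Figure D2:**
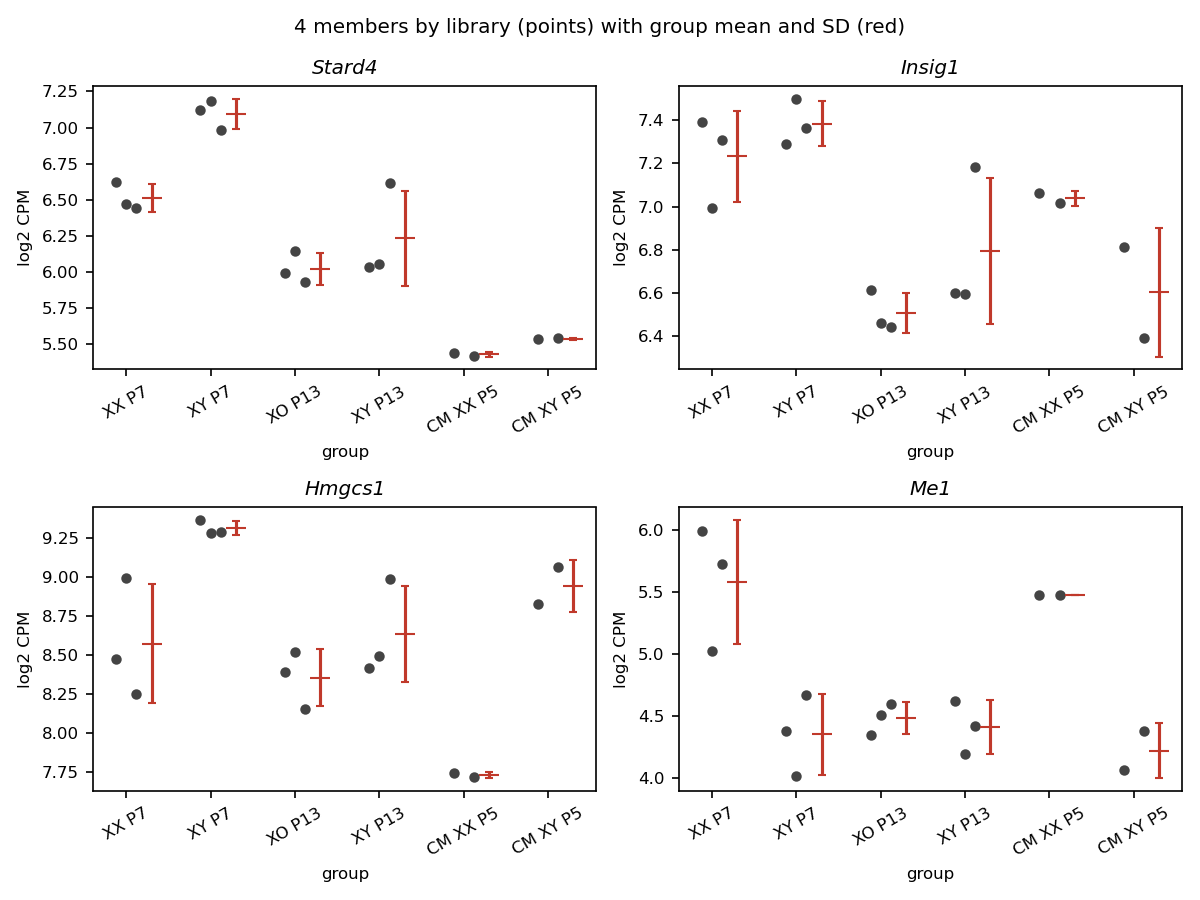
Log2 CPM of Stard4, Insig1, Hmgcs1 and Me1 in each library (grey points) of the iPSC and CM groups, with the group mean and SD (red). Stard4 and Insig1 are lower at P13 than at P7 in both sexes, Hmgcs1 is highest in the XY P7 libraries, and Me1 is high in the XX P7 and CM XX P5 libraries and low in the others.

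In female iPSC lines 4 of the 31 genes fell between P7 and P13 and none rose, against 4.68% of all genes called lower and 4.32% called higher. The median difference was -0.19, with 24 of 31 below 0. The genes that fell were Insig1, Me1, Fads1 and Stard4, which belong to 4 different roles. No gene of the mevalonate pathway (0 of 6) or of the steps from squalene to cholesterol (0 of 9) passed the test.

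Insig1 was at 7.39, 7.00 and 7.31 log2 CPM in LV20, LV21 and LV22 early and 6.62, 6.46 and 6.44 late, without overlap. The fall was 1.65-fold (-0.72 ± 0.15 SE, n = 3 and 3, limma adjusted p = 0.0127). Me1, which makes NADPH for fatty acid synthesis, was at 5.99, 5.03 and 5.72 at P7 and at 4.35, 4.51 and 4.60 at P13. LV21 was the lowest at P7, and the fall was 2.14-fold (-1.10 ± 0.23 SE, limma adjusted p = 0.0145). Fads1 fell 1.39-fold (-0.47 ± 0.10 SE, limma adjusted p = 0.0125).

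Stard4 was at 6.62, 6.47 and 6.44 at P7 and at 5.99, 6.14 and 5.93 at P13. All P13 values lay below all P7 values, and the fall was 1.41-fold (-0.49 ± 0.14 SE, limma adjusted p = 0.0409). All 4 calls were lost without LV20 at P7, where 174 of all genes were called in either direction, in place of 1258. Without LV20 at P13 (304 of all genes) 3 of 4 were lost and Insig1 remained. Me1 and Stard4 were lost without LV22 at P7 (393), and Stard4 without LV22 at P13 (702). The count was 6 without LV21 at P7 (2079). The fibroblast and feeder markers were again all higher at P13 (6 of 12 called), and 3 of 4 Y-linked genes were called higher, at a summed 8.59 to 21.4 CPM against 4.69 to 8.24 at P7. Growth on male feeders is stated in the labels for the chromatin samples only, and the part of either level in the result was not tested.

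Line by line, the 31 genes were lower at P13 in 24 (LV20), 21 (LV21), 24 (LV22), 26 (LV4), 26 (LV8) and 25 (LV16) cases, where 49.5% to 51.3% of all genes were lower. In all 6 lines 13 of the 31 genes were lower, against 11.6% of all genes, and 1, Scap, was higher, against 12.5%. These 13 were Hmgcs1, Mvd, Fdft1, Sqle, Cyp51, Msmo1, Dhcr7, Srebf2, Insig1, Scd1, Scd2, Fads1 and Stard4. Dhcr7 was lower by 0.19 to 0.37 on the log2 scale in the 3 female lines and in the male lines by 0.95 (LV4), 0.73 (LV8) and 0.17 (LV16). The sexes' changes were set against each other in an interaction test, in which none of the 31 genes, and 0 of 13978 genes, passed in limma (1242 genes had an unadjusted p under 0.05, and voom also called 0). Me1 had a change of -1.65, -0.52 and -1.12 in LV20, LV21 and LV22 and of 0.24, 0.18 and -0.24 in LV4, LV8 and LV16, a difference of -1.15 ± 0.32 SE (limma adjusted p = 0.45). It passed without LV21 at P7, the library with the low X-linked level among those named XX.

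**Figure D3:**
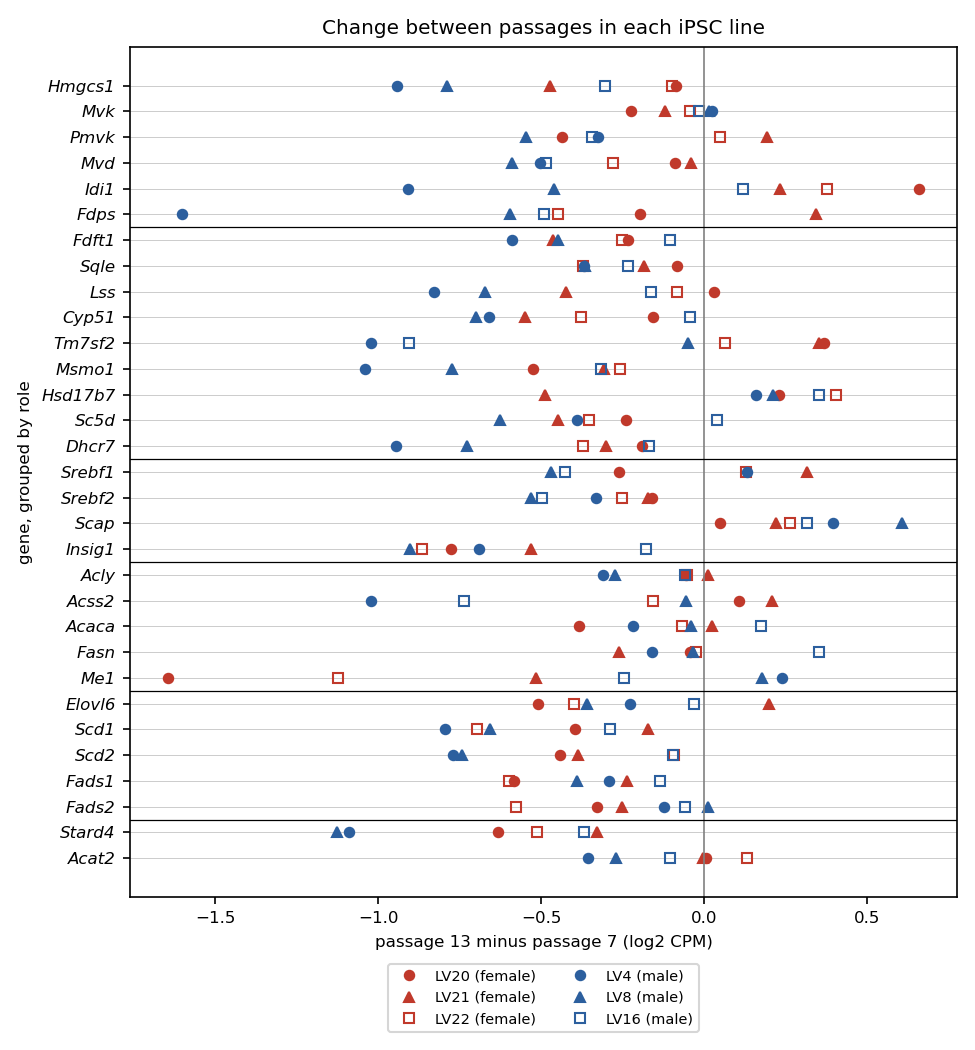
Change in log2 CPM from P7 to P13 for each gene (rows) in the 3 female (red) and 3 male (blue) iPSC lines. Most points lie left of 0, LV4 and LV8 lie farthest left for most sterol genes, Scap lies right of 0 in all 6 lines and Me1 lies left of 0 in the 3 female lines and LV16.

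Other genes of the pathway were counted by list. Of all genes 5.82% were called lower and 7.23% higher at P13 in the male lines, and 4.68% and 4.32% in the female lines. In the male lines 3 of 10 uptake and trafficking genes fell, the lipoprotein receptors Lrp8 (-0.93) and Scarb1 (-0.63) and Soat1, which stores cholesterol as esters (-0.89). Of the 6 tested LXR targets and efflux genes, the cholesterol exporter Abca1 rose by 1.63 and Abcg1 fell by 1.28. Among 15 other fatty acid synthesis genes Lpin1 (-0.94), Slc25a1 (-0.48) and Acsl3 (-0.46) fell and Hsd17b12 (0.27) rose, and of 10 oxidation genes Cpt1a (-0.78), Acadl (-0.62) and Pdk4 (-0.94) fell. Of the 10 oxidation genes 6 lay above 0, as did 4 of the 6 LXR and efflux genes. Below 0 lay 14 of the 15 other fatty acid synthesis genes and 8 of the 10 uptake and trafficking genes. In the female lines the sterol enzyme Nsdhl (-0.77) and the SREBP protease Mbtps2 (-0.58), both X-linked, fell, as did Insig2 (-0.83), Lpin1 (-0.92), Acsl3 (-0.57), Elovl5 (-0.40) and Cpt2 (-0.66), and no uptake or LXR gene passed. The median of X-linked genes was also lower at P13 in all 3 female lines. Lpin1 and Acsl3 fell in both sexes.

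At P7 the XX iPSC lines were compared with the XY lines, the question of the series being what the number of X chromosomes changes. Of the 31 genes 4 were called lower in XX and 2 higher, against 1.72% and 3.05% of all genes (4.78% in either direction). The median was -0.22, with 24 of 31 below 0, among them all 6 mevalonate genes and all 9 from squalene to cholesterol. This comparison and the male passage comparison share the XY P7 libraries, so their values are not independent.

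Fdps was at 3.09, 3.13 and 3.15 log2 CPM in LV20, LV21 and LV22 and at 4.29, 4.07 and 4.31 in LV4, LV8 and LV16, a 2.14-fold lower level in XX (-1.10 ± 0.28 SE, n = 3 and 3, limma adjusted p = 0.0381). Hmgcs1 was at 8.47, 8.99 and 8.25 in XX against 9.28 to 9.36 in XY, 1.67-fold lower (-0.74 ± 0.17 SE, limma adjusted p = 0.0283). Its highest XX value was in LV21. Lss was 1.62-fold lower (-0.69 ± 0.15 SE, limma adjusted p = 0.0219) and Stard4 1.5-fold lower (-0.58 ± 0.14 SE, limma adjusted p = 0.0307).

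Me1 went the other way. Its 5.99, 5.03 and 5.72 in XX stood above 4.38, 4.01 and 4.67 in XY, a 2.34-fold higher level (1.23 ± 0.23 SE, limma adjusted p = 0.0115). Scap was at 5.87, 5.67 and 5.82 against 5.39, 5.18 and 5.35, 1.39-fold higher (0.48 ± 0.11 SE, limma adjusted p = 0.0275). None of the 6 calls held under every alternative: all 6 were lost without LV20, LV22 or LV8, all but Me1 without LV16, and all but Me1 and Scap without LV4. With LV21 (P7) and LV22 (P13) left out, 5 genes were called lower and 2 higher.

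Of the listed pathway genes 4 are X-linked. Ebp, a sterol isomerase, was at 5.41, 4.94 and 5.76 in XX and 4.20, 3.93 and 3.89 in XY, 2.58-fold higher (limma adjusted p = 0.0235), and Mbtps2 was 1.56-fold higher (limma adjusted p = 0.0411). Nsdhl, at 5.95, 5.76 and 6.18 against 5.60, 5.54 and 5.70, was 0.35 higher without passing (adjusted p = 0.208 in limma). Acsl4, a fatty acid activating enzyme, had a difference of -0.34 and did not pass either (adjusted p = 0.274 in limma). So 2 X-linked genes of the pathway were higher in XX. The median of X-linked genes relative to autosomal genes was 0.36, -0.27 and 0.46 in LV20, LV21 and LV22 at P7. It was -0.59, -0.75 and -0.60 in LV4, LV8 and LV16 at P7, and its part in the result was not tested. Of the autosomal members that passed, Me1 and Scap were higher in XX and Fdps, Hmgcs1, Lss and Stard4 lower. Soat1 (-0.72) and Abcg1 (-1.23) were also lower.

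At P13, with the female lines named XO, none of the 31 genes passed against the XY lines in limma, where 0.0286% of genes (4) were called, all lower, and voom also called 4. At an unadjusted p under 0.05 there were 376 genes. The median was -0.083, and it turned to 0.060 without LV16 at P13. Values of Hmgcs1 were 8.39, 8.52 and 8.16 in LV20, LV21 and LV22 against 8.42, 8.49 and 8.99 in LV4, LV8 and LV16. The groups did not overlap for 1 of the 31 genes, Scap (0.21 higher in XO, not past the threshold), against 7.24% of all genes. Me1 was at 4.35 to 4.60 against 4.19 to 4.62, a difference of 0.07 ± 0.23 SE. The X-linked genes Ebp (0.43), Mbtps2 (0.20), Nsdhl (-0.15) and Acsl4 (-0.41) did not pass either.

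The CM ESC lines gave a comparison of XX with XY in other libraries. Here 2 of the 31 genes were called higher in XX and 1 lower, against 6.97% and 5.0% of all 14117 genes, shares near the background. The median was 0.091 and 20 of 31 lay above 0. Hmgcs1 was at 7.75 and 7.72 in CM1 and CM2 and at 8.83 and 9.06 in CM3 and CM7, 2.32-fold lower in XX (-1.21 ± 0.09 SE, n = 2 and 2, limma adjusted p = 3.56e-05). Me1 was at 5.48 in both XX lines and at 4.06 and 4.38 in the XY lines, 2.39-fold higher (1.26 ± 0.16 SE, limma adjusted p = 0.000885).

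Both calls passed under all 9 alternatives. One of the 9 adds F121 at 0 h, a library that the choice of genes used, so it gives no support. In 4 of the 9, 1 line is left out and the lone line of its sex is assumed to vary like the lines that remain. Those without CM3 or CM7 take their spread from CM1 and CM2, and their very small p-values are not given. The lower Hmgcs1 and the higher Me1 of XX lines were thus called in iPSC and in CM ESC lines, which share no library. Fads1 was 1.41-fold higher (0.49 ± 0.10 SE, limma adjusted p = 0.00946), a call lost without CM1, without CM2 and with F121 and V6.5 added. Fdps (-0.16), Lss (-0.23) and Stard4 (-0.11), called lower in the XX iPSC lines, did not pass here, and Tm7sf2 lay at 0.62 against -0.78 in the iPSC lines. Whether the XX effect differs between iPSC and ESC lines was not tested. The count of higher calls was 8 without CM3, and that of lower calls 3 without CM3 or CM7.

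Of the X-linked pathway genes Nsdhl was at 6.80 and 6.83 in CM1 and CM2 against 5.81 and 5.90 in CM3 and CM7, 1.95-fold higher (limma adjusted p = 0.000292). Ebp was 2.81-fold higher (limma adjusted p = 3.56e-05) and Mbtps2 1.9-fold (limma adjusted p = 0.000353), while Acsl4 did not pass. Acacb, an acetyl-CoA carboxylase (1.08), Pcx (0.52) and Cpt1a (0.51) were higher too, as were Scarb1 (0.43) and Npc2 (0.31), while Soat1 (-0.84) and Vldlr (-0.80) were lower. Soat1 was called lower in XX in both kinds of line. In the iPSC lines at P7 it was at 6.45, 7.23 and 6.29 in LV20, LV21 and LV22 against 7.28 to 7.46 in XY. Of 8 pluripotency markers 4 were called higher in the XX CM lines. The median of X-linked genes relative to autosomal genes was 0.19 and 0.28 in CM1 and CM2, against -0.49 and -0.46 in CM3 and CM7. The part of either in the result was not tested.

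**Figure D4:**
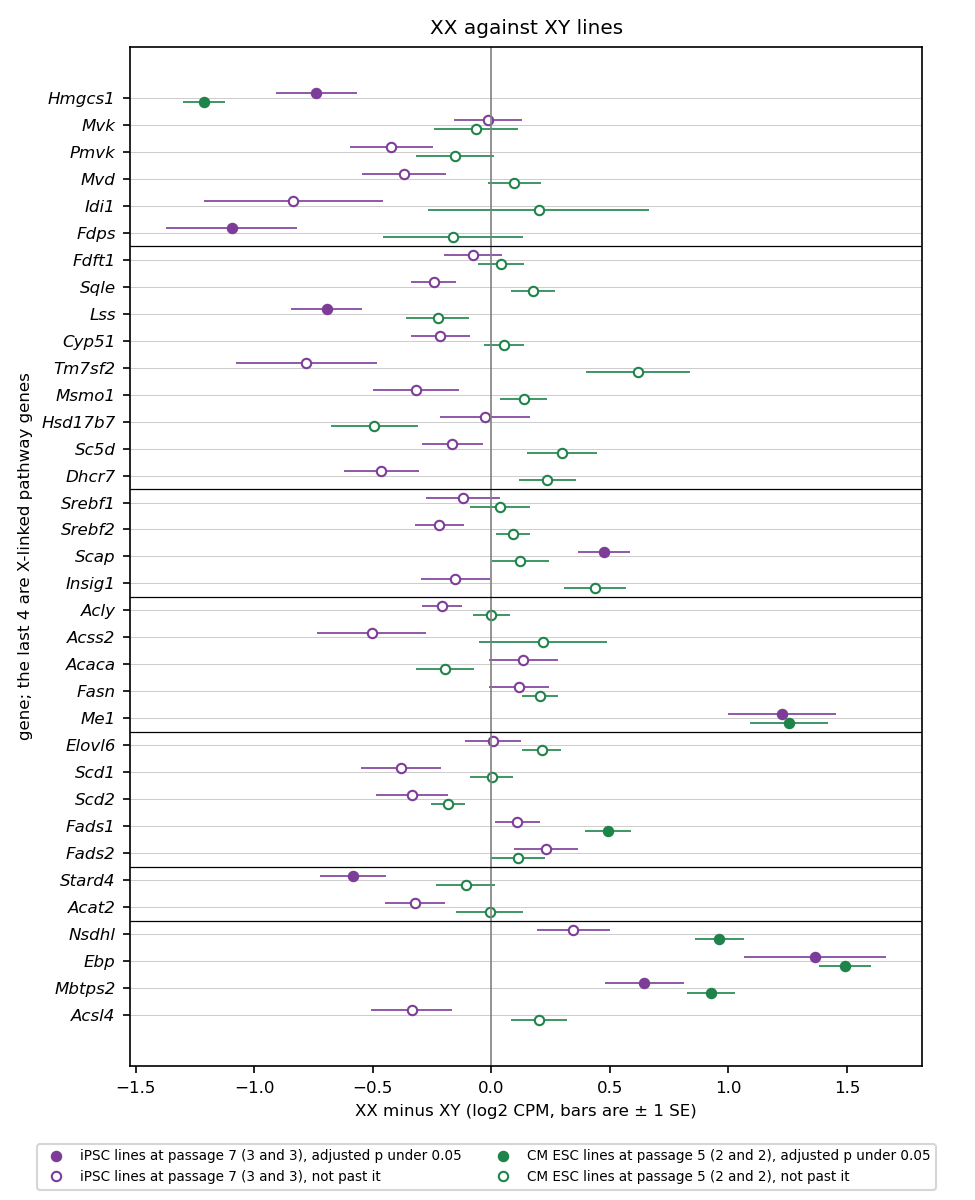
Difference between XX and XY lines (log2 CPM, ± 1 SE) for each gene and for 4 X-linked genes of the pathway, in iPSC lines at P7 (purple, 3 and 3) and CM ESC lines at P5 (green, 2 and 2). Filled points passed the test. Hmgcs1 lies left of 0 and Me1, Ebp and Mbtps2 right of 0 in both, and the sterol genes lie left of 0 in the iPSC lines and on both sides of it in the CM lines.

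iPSC lines at P7 were also set against CM ESC lines at P5 of the same sex. Strain, origin, passage and the level of feeder markers differ with the cell type and cannot be told apart. The P7 and CM libraries were also used in the comparisons above, so the values are not independent of those. Among XY lines 15 of the 31 genes were higher in iPSC and 0 lower, against 13.2% and 13.5% of 14106 genes, with a median of 0.38. At an unadjusted p under 0.05 limma had 5453 genes of either direction. Voom also called 0 of the 31 genes lower, and median-ratio scaling called 1. Stard4 stood at 6.98 to 7.18 against 5.53 and 5.54, 2.94-fold higher (1.56 ± 0.10 SE, n = 3 and 2, limma adjusted p = 2.53e-06), and Scd1 at 7.93 to 8.24 against 6.85 and 6.89, 2.34-fold higher (limma adjusted p = 1.44e-05). Srebf1 (0.93), Insig1 (0.78), Dhcr7 (0.68), Sc5d (0.64), Acly (0.61), Scd2 (0.71) and Fads1 (0.53) were higher too, and these 9 kept their calls under all 9 alternatives. Without CM7 the count was 9. Pmvk, Fdps, Fdft1, Lss, Msmo1 and Acss2 were called higher but lost the call in at least 1 alternative.

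Among XX lines 8 were higher in iPSC and 3 lower, against 11.5% and 10.8% of genes (22.3% in either direction), with a median of 0.10. Stard4 (1.08), Scd1 (0.85), Scd2 (0.55), Srebf1 (0.78), Acly (0.40), Hmgcs1 (0.84), Acaca (0.44) and Fads2 (0.49) were higher, and Tm7sf2 (-1.56), Cyp51 (-0.45) and Sqle (-0.29) lower. Stard4, Srebf1, Scd1, Scd2 and Acly were higher in iPSC in both sexes. The fibroblast and feeder markers were lower in iPSC in both sexes (8 of 12 called in each), and their part was not tested. The calls of Stard4, Scd1, Scd2, Hmgcs1 and Tm7sf2 held under all 9 alternatives. Without CM2, 4 were called higher and 1 lower, and without CM1 6 and 2.

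Over 24 h without LIF the genes chosen here were mostly lower in the clones labelled Dusp9+/-, the pattern they were chosen for, and nothing is tested or supported by it. The median change was 0.086 in F121, -0.70 in clone 1, -0.90 in clone 2 and -0.15 in V6.5. Past 1.5-fold lower were 1 gene, Acss2, in F121 (13.4% of 14335 genes), 20 in clone 1 (17.3%), 21 in clone 2 (16.3%) and 4 in V6.5 (16%). Past 1.5-fold higher were Fads2 and Scd2 in F121 (10.4% of genes), Scap and Fasn in clone 1 (15.3%), and none in clone 2 (11.1%) or V6.5 (13.4%). Each value is 1 library minus 1 library. The difference between the clones' and F121's changes lay below 0 for 29 of the 31 genes and for 49% of all genes.

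The lower change had a part at each time, and both parts come from the values used to choose the genes. Genes chosen this way tend to start above F121 and end below it. The counts and medians here therefore describe the choice and support nothing. At 0 h the clones' mean stood above F121 for 25 of 31 genes (median 0.55), against 49.5% of all genes, and at 24 h below it for 27 (median -0.38), against 52.2%. By role the median difference in change between the clones and F121 was -1.09 for squalene to cholesterol, -0.98 for elongation and desaturation, -0.93 for the mevalonate pathway, -0.67 for the regulators and -0.35 for fatty acid synthesis.

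Insig1 was at 6.70 and 4.73 in clone 1 at 0 h and 24 h, at 6.58 and 4.66 in clone 2, at 5.92 and 5.66 in F121 and at 6.00 and 5.14 in V6.5. Dhcr7 was at 6.98 and 5.45 in clone 1, 6.98 and 5.39 in clone 2, 6.16 and 6.26 in F121 and 6.34 and 6.11 in V6.5. Both clones thus began above F121 and ended below it for these genes. Scd2 was at 9.50 and 8.41 in clone 1, 9.63 and 8.17 in clone 2, 9.13 and 9.82 in F121 and 9.67 and 9.58 in V6.5, which gave the lowest difference in change of the 31 genes, -1.96.

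Scap had a higher change in the clones than in F121 (0.53), the opposite of Insig1, in the contrast used to choose the genes. Fasn (0.18) was the other gene above 0, and Me1 (-0.30), Acss2 (-0.35), Acaca (-0.43) and Acly (-0.44) lay nearest to 0 below it. In V6.5, which the choice of genes did not use, Insig1 (-0.86), Acss2 (-0.83), Msmo1 (-0.70) and Pmvk (-0.59) had the lowest changes. The clones differed for Mvk (0.19 and -0.50), Srebf1 (0.20 and -0.51) and Idi1 (0.07 and -0.79). Fibroblast and feeder markers summed to 824 CPM in F121, 877 in V6.5, 89.5 in clone 1 and 197 in clone 2 at 0 h, and to 278, 234, 186 and 99.2 at 24 h. Their part in the values was not tested.

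**Figure D5:**
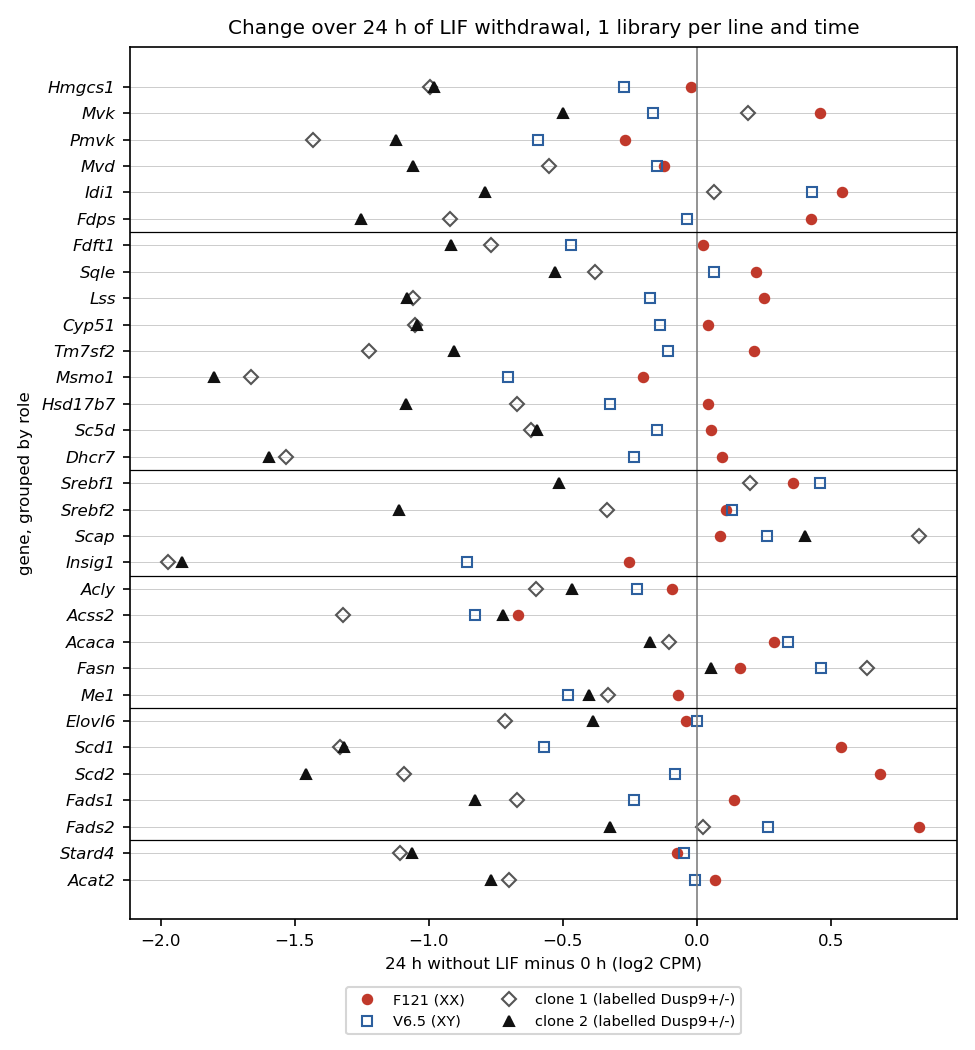
Change in log2 CPM over 24 h without LIF for each gene in F121 (red circles), V6.5 (blue squares) and the 2 clones labelled Dusp9+/- (open diamonds and black triangles), 1 library per line and time. The clones lie left of F121 for most genes, by choice of the genes, and V6.5 lies between them for many.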

How the data were processed

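The authors deposited log2 CPM for 16687 genes in 24 libraries, a unit other than raw counts. Per the submitters' processing notes STAR 2.5.3a, featureCounts, edgeR and the builds GRCm38 and mm10 were used, without their roles. Per the labels the RNA was TRIzol-extracted, made into stranded mRNA libraries and read single-end at 36 or 51 bases. Of 32 RNA samples 8 are technical repeats of the withdrawal libraries, and whether they were combined is not stated. The 20 chromatin samples were not analysed here. Each deposited value equals a floor of 0.183 CPM plus whole multiples of 1 read's worth (100% within 0.01 read), from which reads were recovered.

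Two-sided tests came from limma 3.58.1 (R 4.3.3, eBayes with trend) on the log2 values, with Benjamini-Hochberg adjustment over all genes whose mean reached 1 CPM. The 12 iPSC libraries shared 1 fit, as did the 4 CM libraries and the 10 libraries of the cell type comparison. P-values measure the spread between lines within groups, and between passages they do not measure the spread of each line's own change. The planned edgeR alternative was not run, and voom on the recovered reads, chosen after seeing the data, took its place. The fits were tested on simulated data. The genes and lists were chosen with earlier results of these data known. All 31 genes are named, with at most 4 called genes of each other list and the X-linked ones. One listed pathway gene is not reported here.

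Same-numbered lines at P7 and P13 are the same line, so the numbers pair them. Deviations from group means correlated between passages at 0.035, 0.094, 0.10, 0.066, 0.11 and -0.039 for LV20, LV21, LV22, LV4, LV8 and LV16. The best correlation with another line of the same sex was 0.029, -0.030, 0.083, 0.071, -0.036 and 0.055, which for LV4 and LV16 was above the line's own. The pairing therefore rests on the numbers, not on these values.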

Additional observations from a re-analysis of the deposited data

Results flagged for a closer look

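Tm7sf2, a sterol reductase, changed by 0.37, 0.35 and 0.07 on the log2 scale from P7 to P13 in the female lines LV20, LV21 and LV22 and by -1.02, -0.05 and -0.91 in the male lines LV4, LV8 and LV16. It is named because every female line moved one way and every male line the other, a difference of 0.92 ± 0.42 SE. By that rule the difference was not tested, and in the interaction test of limma it did not pass (adjusted p = 0.548, 3 and 3 lines). The gene had 45 to 275 reads per library.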

How the results depend on the processing

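Over the called genes of the 31 and of the other pathway lists, 911 values under alternatives kept direction and call, 291 lost the call and none reversed. Without the filter on low values 1 of the 31 genes was called lower in XX iPSC at P7, in place of 4. Adding F121 and V6.5 left 1 gene higher in XX CM lines, and median-ratio scaling gave 1 lower gene in XY iPSC against ESC lines. With LV21 (P7) and LV22 (P13) left out the female passage median was -0.083, and 1 gene (Me1) passed the interaction test. The cause of these changes was not tested.

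Over all genes, the number called at P7 between XX and XY was 440 without the filter and 1818 with those 2 libraries left out, in place of 668. Between CM lines it was 769 without the filter and, with F121 and V6.5 added, 1020, in place of 1690. In the interaction test it was 364 without the 2 libraries.

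With line as a replicate block 6 genes were lower in female and 14 in male lines at P13. Of all genes 1551 and 2096 were called, in place of 1258 and 1823. The genes called in the interaction test went from 0 to 11, with none of the 31 among them.

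Leaving out 1 library at a time, 0 to 4 genes were lower and 0 to 2 higher in XX iPSC at P7 (median -0.31 to -0.22). Of all genes 44 to 1727 were called there. At P13 against P7, 0 to 6 were lower in female lines (median -0.28 to -0.14), where 174 to 2079 of all genes were called. In male lines 1 to 17 were lower and 0 to 1 higher (median -0.52 to -0.31), where 429 to 2198 of all genes were called. In XX CM lines 1 to 8 were higher and 1 to 3 lower. Against ESC lines, 9 to 13 were higher in XY iPSC, and 4 to 8 higher and 1 to 3 lower in XX iPSC. The interaction test called 0 to 1.

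Counts limit Idi1, with 7 to 41 reads per library, and Tm7sf2, with 45 to 275.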
